A study of Mus musculus with 15 samples.

Results

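Whole lungs from wild-type CD1 mouse embryos were explanted at E12.5 (embryonic day) and kept in culture for 48 h at either high or low transmural pressure, and their RNA was sequenced. The comparison rests on the 6 cultured libraries of the series' 15, 3 per pressure, chosen by their labels. The other 9 libraries came from lungs isolated directly from embryos at E12.5, at E13.5 or at E14.5, and are used here only to describe, without a test, how genes differed between stages in the embryo. CD1 is an outbred strain, no allele was engineered, and the groups differed in pressure and in pool size as far as the labels say. The sources used here do not give the values of the pressures. Each low pressure library pooled 6 lungs and each high pressure library pooled 3, so pool size and pressure cannot be told apart. Whether the pools came from separate litters or culture runs is not stated, so p-values measure the spread between these pools, which may be technical.

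The airways of the embryonic lung are closed tubes filled with fluid that the epithelium secretes, and transmural pressure is the difference between the pressure inside the lumen and that around the lung. The airway tree grows by repeated branching of epithelial buds, guided by signals exchanged with the surrounding mesenchyme: FGF10 from the mesenchyme draws buds outward, and hedgehog ligand from the epithelium acts back on the mesenchyme. Later in gestation the distal epithelium forms alveolar type 1 cells, which make up the thin gas exchange surface, and type 2 cells, which make surfactant.

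The libraries are called low-1 to low-3 and high-1 to high-3. They held 31843739 to 38288861 counts at low and 40167255 to 44341263 at high pressure. Low-3 stood apart from the other 5: it had counts for 14637 genes, against 16509 to 16726 in the others, and 37.1% of 1252 genes that had 0.1 to 0.5 CPM (counts scaled to library size) or more in each of the other libraries had no count in it. Of the variance among the 6 libraries, 56.4% lay along a component on which low-3 had a score of -100.5 and the others had -12.4 to 42.7. The share of counts taken by 83 ribosomal protein genes was 2.02% ± 0.137 (SD, n = 3) at low pressure, against 3.11% ± 0.140 (SD, n = 3) at high pressure, without overlap (exact permutation test, two-sided, p = 0.1, the smallest that 3 against 3 allows). Haemoglobin genes took 0.0381% ± 0.0191 and 0.0427% ± 0.00735 (SD, n = 3; exact permutation test, two-sided, p = 0.7).

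Of 14937 genes tested, 26.1% passed edgeR's quasi-likelihood test at an adjusted p under 0.05 (Benjamini-Hochberg): 2089 (14.0%) rose and 1816 (12.2%) fell at high pressure. A log2 fold change of 1 or more in size was found for 543 of the risen genes (3.64% of those tested) and 392 of the fallen genes (2.62%). The libraries of the groups did not overlap for 46.8% of the genes. Over all genes tested the log2 fold change had a median of 0.01. Without low-3, 6257 of 15240 genes passed (41.1%), and without high-1, high-2 or high-3 the number was 2411, 1894 and 2016. In what follows, values per library are given in the order of the replicate numbers, fold changes are log2 of high over low pressure, and a gene is said to have risen or fallen only where it passed. Of 353 genes past the threshold that the naming rule takes, 247 also passed in each of the 6 fits without 1 library. Of these, 233 also passed under every other setting that tested them. The setting with a mean of at least 5 CPM did not test the scarcer genes. Genes named below as risen or fallen belong to the 233 unless stated. Counts of a gene group that change by over 1.5 times without 1 library are given beside the count, as in "6 without high-2", except for counts of 3 or fewer, which 1 or 2 genes can move. Positions are those of GENCODE M21 on GRCm38/mm10.

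Gene length and GC content moved with pressure across the whole table. Risen genes had a median transcript length of 2775 bases and a median GC content of 53.5%, fallen genes 4798 bases and 45.8%, and all tested genes 3418 bases and 49.8%. Genes were split by transcript length into 5 classes of about equal size. In the class with the shortest transcripts (64 to 2001 bases) 652 rose and 108 fell, and in the class with the longest (5305 bases or more) 220 rose and 761 fell. Across 14821 genes, which are not independent replicates, the fold change had a Pearson r of -0.23 with log2 length and 0.23 with GC content. A fit with an offset for length and GC content in each library brought the medians of the classes to between -0.02 and 0.01 and called 3052 of 14821 genes (20.6%), 1576 higher (10.6%) and 1476 lower (9.96%). These counts with offsets stand beside the gene groups below wherever they moved them by over 1.5 times.

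**Figure D1:**
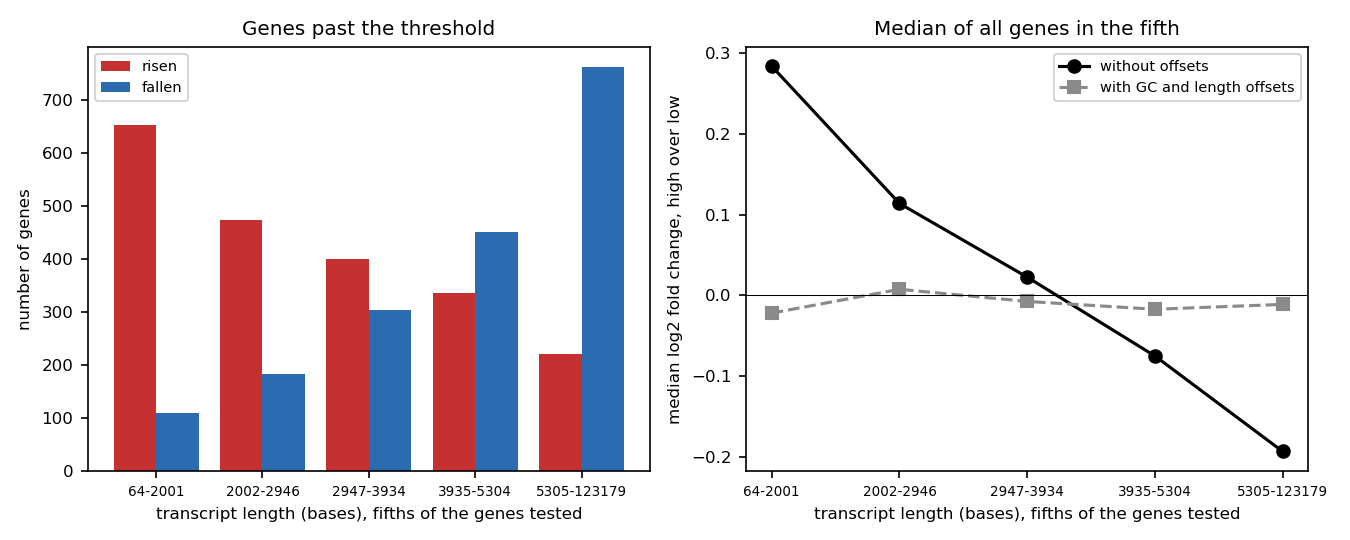
Genes tested were split into 5 classes by transcript length in bases (horizontal axes). The left panel counts the genes that rose or fell in each class, and the right panel gives its median log2 fold change without and with offsets for GC content and length. Risen genes outnumber fallen genes in the 3 classes of shorter transcripts and fallen genes outnumber risen genes in the other two, and the median goes from 0.28 to -0.19 without offsets.

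Among called genes that averaged 20 CPM or more and whose groups did not overlap, the largest rise was that of Sftpc, the surfactant protein C gene of type 2 cells and their precursors (chr14:70520949-70524081, minus strand). It stood at 4.72, 2.94 and 9.2 CPM at low and 210.3, 146 and 128 CPM at high pressure. Every high pressure library was thus far above every low pressure library, and the log2 fold change was 4.86 (SE 0.40, adjusted p = 0.000398). Cldn18, a claudin of alveolar tight junctions (chr9:99689461-99717267, minus strand), went from 47.6, 32.7 and 53.7 CPM to 227, 318 and 237 CPM, a change of 2.55 (SE 0.21, adjusted p = 0.000393). Muc1, a mucin anchored in the apical membrane of epithelial cells, had 11.2, 7.34 and 7.63 CPM at low and 49.8, 53.9 and 45.4 CPM at high pressure. It rose by 2.51, and the choice of these genes required the absence of overlap between the groups. Wfdc2, a small secreted protease inhibitor of the airways (chr2:164562413-164568510, plus strand), had the narrowest spread of the 15 leading rises relative to its change. Its libraries held 26.5, 24.3 and 27.8 CPM at low and 131, 123 and 118 CPM at high pressure, a change of 2.24 (SE 0.10, adjusted p = 4.41e-05).

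Other leading rises were of several kinds. Spon2, a secreted matrix protein of the spondin family, had 5.97, 6.51 and 6.17 CPM at low and 44.8, 38.1 and 37.5 CPM at high pressure and rose by 2.69 (SE 0.13, adjusted p = 7.86e-05). C3, the central complement component, rose by 2.52 (SE 0.19, adjusted p = 0.00031), and Gas6, a secreted ligand of the TAM receptor kinases, by 2.44. Cym, which encodes the aspartic protease chymosin, stood at 21, 10.3 and 20.5 CPM at low and 131, 97.2 and 94.2 CPM at high pressure, a rise of 2.64. Among enzymes, Adh1, an alcohol dehydrogenase, rose by 2.27 and Aldh1a7 by 2.36. Aldh1a7 is a close copy of Aldh1a1, which rose by 2.08, and how reads shared between them were counted is not stated. Tinagl1 (2.32), the nonmuscle myosin Myh14 (2.19), the fatty acid transporter Slc27a6 (2.14) and Plac8 (2.13) rose too. Lbp, which binds bacterial lipopolysaccharide, rose by 2.28 (SE 0.54, adjusted p = 0.0168) with wide spread, from 36.7, 7.39 and 24.1 CPM to 116, 155 and 58.6 CPM, and did not pass without low-3, high-1 or high-2 (largest adjusted p = 0.155).

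**Figure D2:**
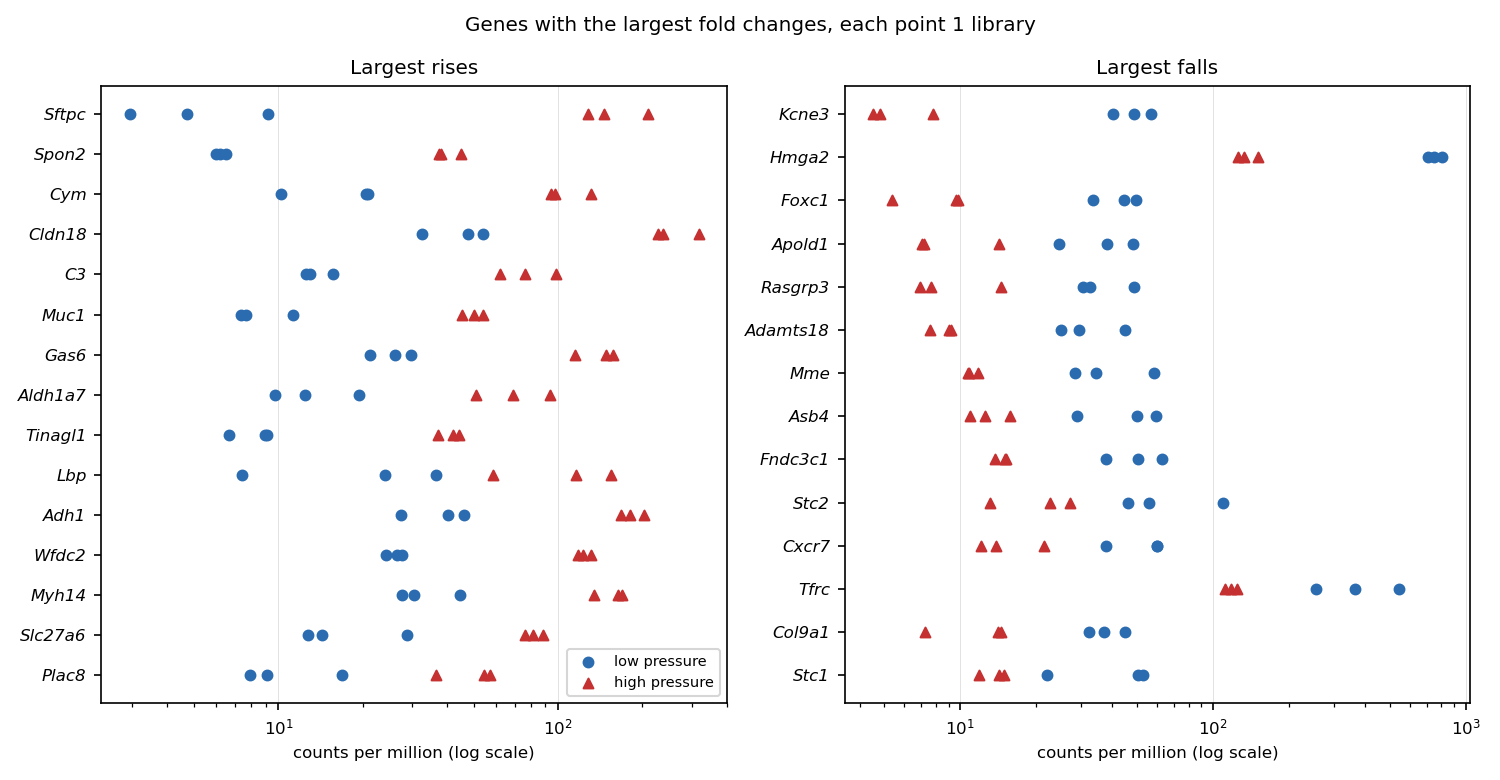
Expression in CPM (log scale) of the 15 genes with the largest rises (left) and 14 of the 15 with the largest falls (right) among called genes that averaged 20 CPM or more and whose groups did not overlap. Each point is 1 library, circles for low and triangles for high pressure, and in every gene all circles lie on one side of all triangles because the choice required it.

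The largest falls came from a different set of genes. Kcne3, an accessory subunit of potassium channels in epithelia (chr7:100176502-100184869, plus strand), stood at 56.7, 48.6 and 40.3 CPM at low and 7.79, 4.82 and 4.52 CPM at high pressure. That is the largest fall in the set, at -3.09 (SE 0.24, adjusted p = 0.000369). Hmga2, a chromatin protein of early embryonic tissues, had 709, 803 and 749 CPM at low and 150.4, 125 and 132 CPM at high pressure and changed by -2.47 (SE 0.11, adjusted p = 4.41e-05). Foxc1, a forkhead transcription factor of mesenchyme and vessels (chr13:31806633-31812476, plus strand), had 33.6, 49.4 and 44.3 CPM at low and 5.37, 9.8 and 9.65 CPM at high pressure, a change of -2.36 (SE 0.25, adjusted p = 0.000951). The lowest low pressure library still had more than 3 times the highest high pressure library for Foxc1 and more than 4 times for Hmga2 and Kcne3.

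Other leading falls included secreted and membrane proteins. Stc1 and Stc2, which encode the stanniocalcins, glycoprotein hormones that act locally, fell by 1.61 and 1.74 on the log2 scale. Cxcr7, a receptor that takes up the chemokine CXCL12, had 59.8, 59.9 and 37.7 CPM at low and 21.5, 12.1 and 13.8 CPM at high pressure, a change of -1.73 (SE 0.25, adjusted p = 0.00265). Tfrc, the transferrin receptor through which cells take up iron, stood at 364, 542 and 255 CPM at low and 111, 117 and 125 CPM at high pressure and changed by -1.72 (SE 0.24, adjusted p = 0.00209). Mme, the membrane peptidase neprilysin, had 28.5, 34.5 and 58.5 CPM at low and 10.9, 10.7 and 11.8 CPM at high pressure, and its high pressure libraries lay within a narrow band well under all low pressure libraries. Further falls were those of Apold1 (-1.96), Rasgrp3 (-1.95), an exchange factor for Ras proteins, the metalloprotease Adamts18 (-1.94), Asb4 (-1.82) and Fndc3c1 (-1.78).

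**Figure D3:**
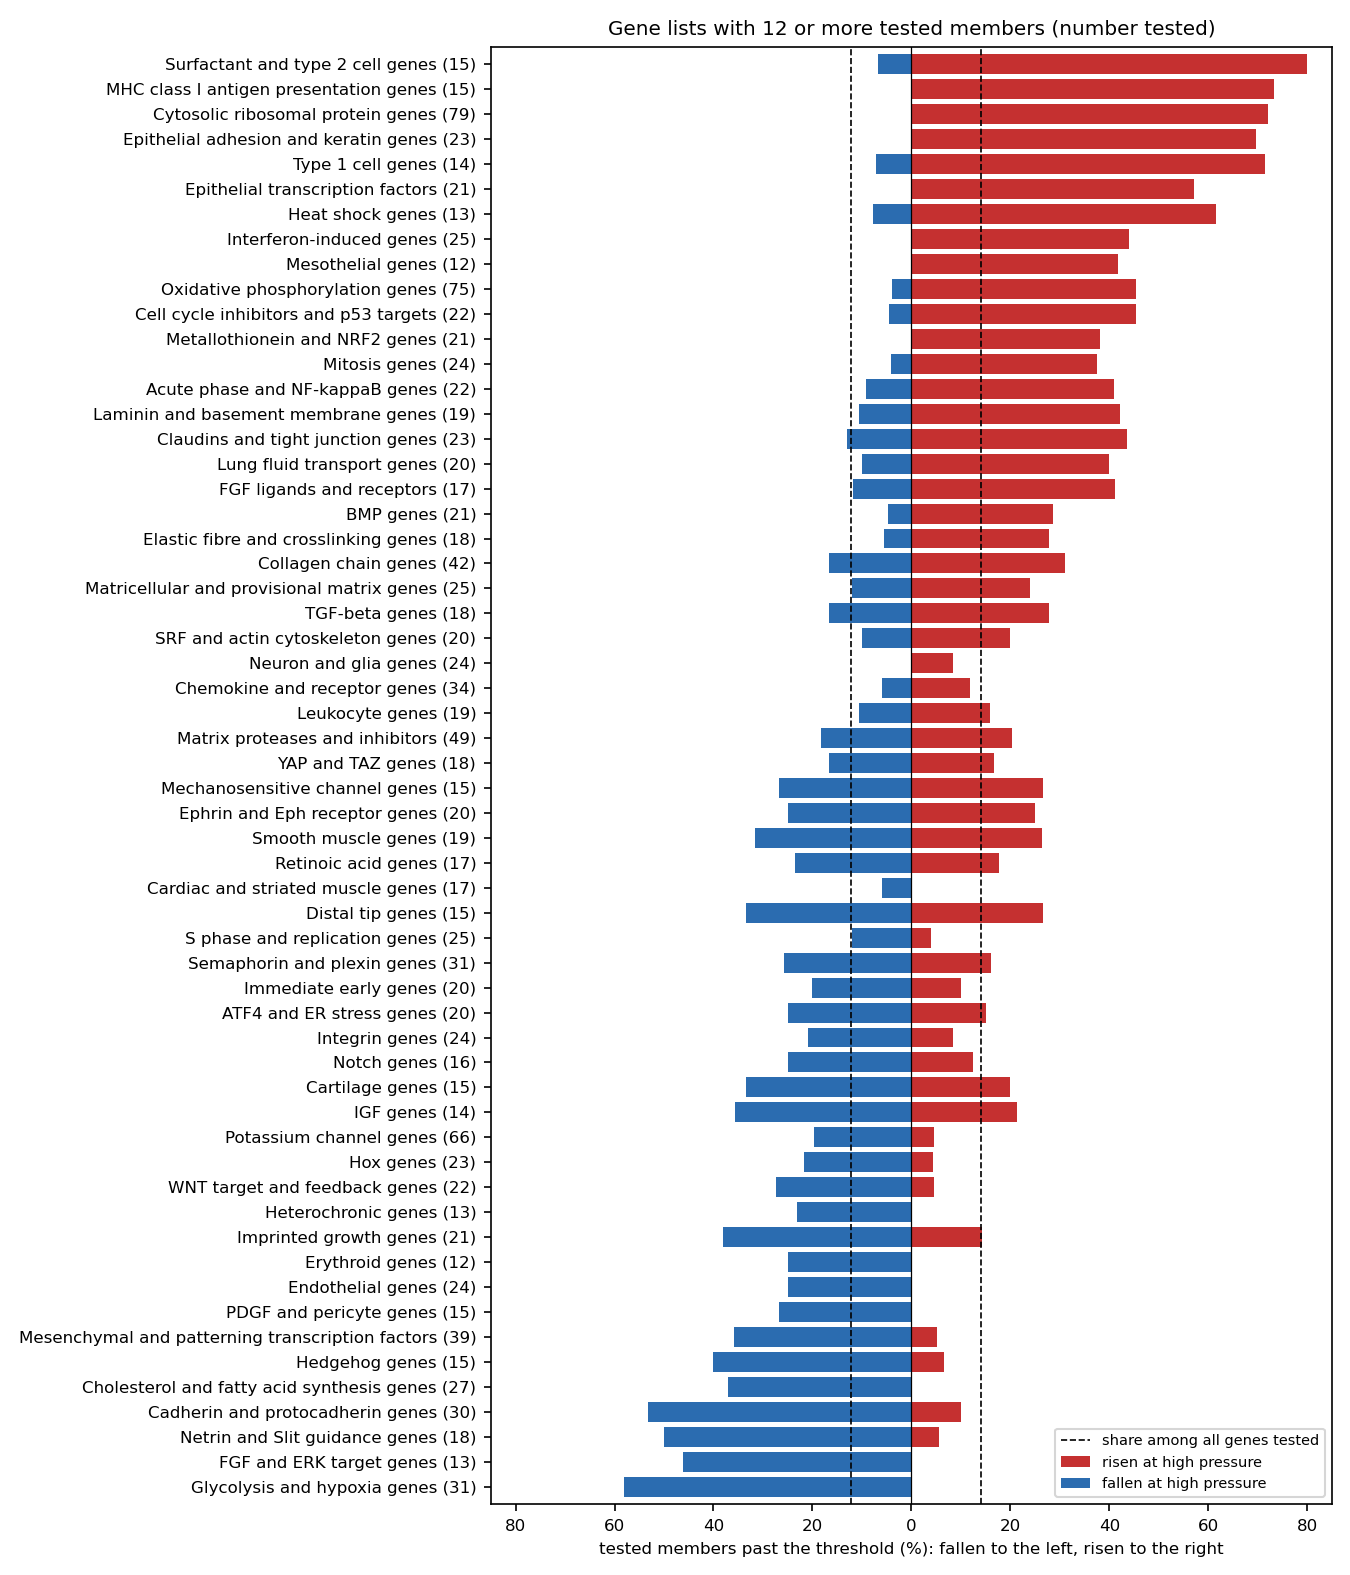
Share of tested members that rose (to the right) or fell (to the left) in each gene list with 12 or more tested members, with the number tested in parentheses. Dashed lines mark the shares among all genes tested, 14.0% risen and 12.2% fallen. Surfactant, MHC class I, ribosomal protein, type 1 cell and epithelial adhesion lists reach the highest risen shares, and glycolysis and hypoxia genes the highest fallen share.

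Genes were then read by role, in 63 lists of cell type, pathway and structural genes that held 1385 distinct tested members. Of these, 360 rose and 235 fell. The counts of each list below stand beside 14.0% risen and 12.2% fallen among all genes tested, and some lists lie near those shares. More members rose than fell in 31 lists, more fell in 29, and the numbers were equal in 3. Leaving out 1 library gave 360 members past the threshold in all without high-2 and 387 without high-3, against 595 with all libraries.

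Of 23 epithelial adhesion and keratin genes, 16 rose and none fell, with a median of 1.04. Cdh1, the E-cadherin of adherens junctions (chr8:106603351-106670246, plus strand), had 123, 109.6 and 133 CPM at low and 327, 329.7 and 295 CPM at high pressure, a change of 1.38 (SE 0.10, adjusted p = 0.00031). Epcam, an epithelial surface adhesion protein, stood at 203, 162 and 136 CPM at low and 372, 420.0 and 389 CPM at high pressure. Jup, the plakoglobin that links cadherins to the cytoskeleton, rose by 1.12, the keratin Krt19 by 1.18 and the membrane protease inhibitor Spint2 by 1.29. Each of these 5 genes rose by between 1.12 and 1.38, and none overlapped between the groups, beside 46.8% of all genes without overlap. All but Epcam were chosen as members with the smallest p, which favours such an absence of overlap. The summed level of the list was 1062 to 1173 CPM at low and 2081 to 2141 CPM at high pressure. In RNA of whole lungs, more cells of a type and more RNA per cell cannot be told apart, and the part that a larger epithelial share has in the epithelial results was not tested.

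Of 21 epithelial transcription factors tested, 12 rose and none fell (median 0.65), with 6 without high-2 and 7 without low-2 or high-1. Nkx2-1, the factor that marks lung epithelium from its origin (chr12:56531958-56536908, minus strand), had 87.7, 78 and 87.7 CPM at low and 172, 185 and 171 CPM at high pressure, a change of 1.06 (SE 0.09, adjusted p = 0.000405). The ETS factors Ehf (2.0) and Elf3 (1.28) and the Krüppel-like factor Klf5 (1.42) rose too. Klf5 held 15.3, 12.6 and 11.8 CPM at low and 34.4, 35.3 and 36.1 CPM at high pressure, with no overlap. Sox2, the factor of the proximal airway, did not pass: its libraries held 8.24, 11.7 and 10.3 CPM at low and 9.44, 12.6 and 5.7 CPM at high pressure, and the ranges overlapped (-0.13, SE 0.28, adjusted p = 0.778).

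The surfactant list had the highest median of all lists with 12 or more tested members. In this list of surfactant and type 2 cell genes, 12 of 15 members rose (80.0%, beside 14.0% of all genes) and 1 fell (median 1.85), with 8 risen without high-2. The fallen member was Scd1, a fatty acid desaturase (-0.70), which did not pass without low-2, low-3, high-2 or high-3. Sftpb, which encodes surfactant protein B, had 2.24, 2.19 and 5.11 CPM at low and 24.3, 23.3 and 19.4 CPM at high pressure, a change of 2.82 (SE 0.33, adjusted p = 0.00114). Lpcat1, an enzyme that builds surfactant phospholipid, rose less, by 0.85. Among type 1 cell genes 10 of 14 rose and 1 fell (median 0.93). Ager, a surface receptor of type 1 cells, had 5.81, 5.05 and 7.51 CPM at low and 23, 29.1 and 27.2 CPM at high pressure and rose by 2.11. Emp2, a membrane protein of type 1 cells, stood at 39.1, 25.6 and 50.9 CPM at low and 146, 159 and 159 CPM at high pressure, a rise of 2.01, and Gprc5a rose by 1.48. The member that fell was the vascular growth factor Vegfa (-0.87), also a target of hypoxia.

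The conducting airway lists were smaller. Of 9 secretory airway genes 5 rose and none fell (3 without high-1, high-2 or high-3). Cyp2f2, a cytochrome of club cells, was near 0 at low pressure and had 14.3, 9.87 and 7.31 CPM at high pressure. Of 10 ciliated cell genes 2 rose and 1, Rfx3 (-0.42), fell, with 1 risen without low-1, low-2, high-2 or high-3 or with the offsets and 5 without low-3. The summed level of that list was 102 to 114 CPM at low and 96.9 to 115 CPM at high pressure, and the ranges overlapped. Rfx3 did not pass without low-1, low-2, high-2 or high-3 or with the offsets. Foxj1, the master factor of multiciliated cells, rose by 2.64 (SE 0.52, adjusted p = 0.00836), from 0.839, 0.833 and 0.543 CPM to 4.05, 7.82 and 1.98 CPM. Of 10 basal and proximal airway genes none rose and 3 fell (median -1.14), or 5 with the replicate number as a block. Trp63, the basal cell factor, had 13.8, 18.3 and 25.4 CPM at low and 4.7, 4.39 and 5.25 CPM at high pressure, a change of -2.0 (SE 0.24, adjusted p = 0.00119). Snai2, which is also expressed in mesenchyme, fell by 1.33 on the log2 scale. In the distal tip list 4 of 15 members rose and 5 fell (median -0.07), with 2 without high-2 or high-3 for the rises and 3 without high-2 for the falls, and 2 rises with the offsets. Sox9, which marks the growing tips and also cartilage, stood at 254, 263 and 223 CPM at low and 128, 145 and 151 CPM at high pressure, a change of -0.81 (SE 0.10, adjusted p = 0.00156). Clu, which encodes the secreted chaperone clusterin, rose by 1.79 and Dlk1, a noncanonical Notch ligand, by 1.02.

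Of 23 claudins and tight junction genes 10 rose and 3 fell (median 0.62). Cldn3 (0.94), Cldn6 (0.82) and the junction adaptor Cgn (0.97) rose, while Cldn1 went from 18.1, 20.2 and 32.9 CPM to 9.33, 9.64 and 8.41 CPM (-1.38) and Cldn11 fell by 1.27 on the log2 scale. Of 20 lung fluid transport genes 8 rose and 2 fell (median 0.73), and 13 rose without low-3. Atp1b1, the beta subunit of the sodium pump that drives fluid absorption (chr1:164437109-164458355, minus strand), had 73.4, 61 and 66.9 CPM at low and 155, 177 and 172 CPM at high pressure, a change of 1.32 (SE 0.10, adjusted p = 0.000369). Scnn1g, a subunit of the epithelial sodium channel, had 8.86, 8.07 and 9.998 CPM at low and 27.1, 29 and 29.9 CPM at high pressure, a change of 1.68 (SE 0.14, adjusted p = 0.000393). Slc26a9, a chloride channel of airway epithelium, rose by 2.0 and the scaffold Slc9a3r1 by 1.19. Kcne3 is a member of this list too, and was its largest fall.

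Among genes of mechanosensitive channels, 4 of 15 rose and 4 fell (median 0.04). Only 1 of each direction passed in every fit. Piezo2, a stretch-gated cation channel, had 112, 112 and 138 CPM at low and 43.8, 45.8 and 48.5 CPM at high pressure, a change of -1.39 (SE 0.11, adjusted p = 0.000393). Tmem63a, an osmotically and mechanically gated channel, rose by 1.06 from 17.4, 14.4 and 16.1 CPM to 32.8, 32.4 and 34.7 CPM. Without 1 library the list's rises were 1 without low-1, low-2, high-1, high-2 or high-3, and its falls 1 without high-2 or high-3 and 2 without high-1. With the offsets 2 rose and 1 fell. Of 66 potassium channel genes 3 rose and 13 fell (median -0.24), with 7 risen without low-3 and 7 without high-2 or high-3 and 8 without low-2 for the falls. The voltage-gated subunits Kcns3 (-1.78), Kcnd3 (-1.26) and Kcna6 (-0.99) fell, and Kcnk1, a background potassium channel, rose by 0.76.

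FGF ligands and receptors were read apart from the genes that FGF signalling induces, and the difference between these lists was not tested. Of 17 ligand and receptor genes 7 rose and 2 fell (median 0.47), with 4 risen and 3 fallen under the offsets (median 0.23). Fgf10, the mesenchymal ligand that draws out buds (chr13:118669791-118792115, plus strand), had 26.9, 21.7 and 28.1 CPM at low and 37.2, 47 and 42.7 CPM at high pressure, a change of 0.73 (SE 0.14, adjusted p = 0.0079). Fgfr3, one of the FGF receptors, stood at 103, 95.9 and 89.3 CPM at low and 201, 199 and 198 CPM at high pressure, and its high pressure libraries lay within 3 CPM of each other (1.05, SE 0.09, adjusted p = 0.000393). Fgf1 rose by 2.33 and Fgf2 by 1.72, both from levels under 4 CPM, while Fgf11, an intracellular family member, fell by 0.75 on the log2 scale. Of 13 target genes of FGF receptors and the kinase ERK none rose and 6 fell (median -0.45). Etv4, an ETS factor induced by FGF10 in the tips, had 11.9, 13.7 and 11.9 CPM at low and 4.7, 4.12 and 7.61 CPM at high pressure, a change of -1.19 (SE 0.25, adjusted p = 0.00981). The feedback inhibitors Il17rd (-0.77) and Spred1 (-0.60) fell too, and Spred1 held 312, 302 and 257 CPM at low and 183, 185 and 208 CPM at high pressure.

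Of 15 hedgehog pathway genes 6 fell and 1 rose (median -0.23), and 6 fell in each fit without 1 library. The member that rose, the co-receptor Gas1, did not pass without high-2 or high-3 or with the offsets. Foxf1, a forkhead factor that hedgehog induces in lung mesenchyme (chr8:121084386-121088144, plus strand), had 406, 378 and 261 CPM at low and 143, 149.8 and 150.2 CPM at high pressure, a change of -1.24 (SE 0.16, adjusted p = 0.0015). Ptch1, the receptor that is also a target gene, stood at 299, 348 and 282 CPM at low and 191, 147 and 182 CPM at high pressure, a change of -0.84 (SE 0.13, adjusted p = 0.00302). The transcription factors Gli3 and Gli2 fell by 0.87 and 0.57 on the log2 scale. All 4 genes were lower in each high pressure library than in any low pressure library, beside 46.8% of all genes without overlap. They were chosen as the fallen members with the smallest p, which favours such an absence of overlap.

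Among WNT ligands 2 of 11 rose (18.2%, beside 14.0% of all genes) and none fell (median 0.04). These were Wnt4, which rose by 1.02, and the epithelial ligand Wnt7a, which rose by 2.27 from 1.46, 0.963 and 0.543 CPM. Of 22 WNT target and feedback genes 1 rose and 6 fell (median -0.22), and 5 rose without low-3. Lef1, a transcription factor through which beta-catenin acts, had 101, 103 and 92.2 CPM at low and 41.1, 37.7 and 46.6 CPM at high pressure, a change of -1.24 (SE 0.11, adjusted p = 0.00048). The secreted WNT inhibitors Dkk1 (-2.42) and Frzb (-2.14) and the receptor kinase Ror1 (-0.72) fell.

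For BMP signalling 6 of 21 members rose and 1 fell (median 0.21), with 2 without high-2 and 3 without high-3, and 3 with the offsets. Bmp5 rose by 0.89 and the extracellular modulator Bmper by 0.48, while Chrdl1, a secreted BMP antagonist, went from 7.77, 8.07 and 7.92 CPM to 2.16, 1.09 and 2.24 CPM (-2.11, SE 0.30, adjusted p = 0.00232). In the TGF-beta list 5 of 18 rose and 3 fell (median 0.07). The rises included the extracellular latent TGF-beta binding proteins Ltbp2 (2.08) and Ltbp4 (0.92) and the ligand Tgfb3 (0.70). The falls included the receptor Tgfbr1, at 291, 292 and 309.6 CPM at low and 165, 155 and 150.3 CPM at high pressure (-0.93, SE 0.08, adjusted p = 0.000544), and its signal transducer Smad3 (-0.56). Any library but low-3 left out gave 3 rises in this list.

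In the retinoic acid list 3 of 17 rose and 4 fell (median -0.31), and 8 fell with the offsets. The synthetic enzyme Aldh1a1 and the receptor Rxra (0.51) were among the rises. Cyp26b1, which degrades retinoic acid, had 89, 106 and 73 CPM at low and 26.2, 24.5 and 40.2 CPM at high pressure, a change of -1.56 (SE 0.21, adjusted p = 0.00194). The falls numbered 1 without low-2, high-2 or high-3 and 2 without high-1. Of 16 Notch genes 2 rose and 4 fell (median -0.42), among the falls the ligand Jag1 (-0.92), the receptor Notch2 (-0.56) and the target Hey1 (-1.18). The 2 rises did not pass without high-2. In the list of YAP and TAZ genes, which respond to cell stretching and crowding, 3 of 18 rose and 3 fell (median 0.24). Each share was 16.7%, beside 14.0% risen and 12.2% fallen among all genes. None of these 6 passed in every fit without 1 library: the rises numbered 0 without high-2 or high-3, 1 without low-2 and 7 without low-3, and no member fell without low-1, low-2 or any high pressure library.

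Of 14 IGF genes 3 rose and 5 fell (median -0.27). The binding proteins went different ways: Igfbp7 (2.66) and Igfbp6 (1.86) rose from levels under 4 CPM, and the abundant Igfbp5 fell by 0.69 on the log2 scale, with 3165 to 3404 CPM at low and 1963 to 2169 CPM at high pressure. Irs4, an adaptor of the insulin and IGF receptors, fell by 3.91 on the log2 scale, to between 0.14 and 2.16 CPM. The falls numbered 3 without low-2, high-1 or high-2, and 3 with the offsets. Of 21 imprinted growth genes 3 rose and 8 fell (median -0.27; 5 without high-2 or high-3). Peg10, which derives from a retroelement, had 688, 725 and 458 CPM at low and 207, 172 and 239 CPM at high pressure, a change of -1.6 (SE 0.19, adjusted p = 0.00126). Mest fell by 0.96 and Peg3 by 0.62 on the log2 scale, while Gnas, the stimulatory G protein subunit, rose by 0.80.

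**Figure D4:**
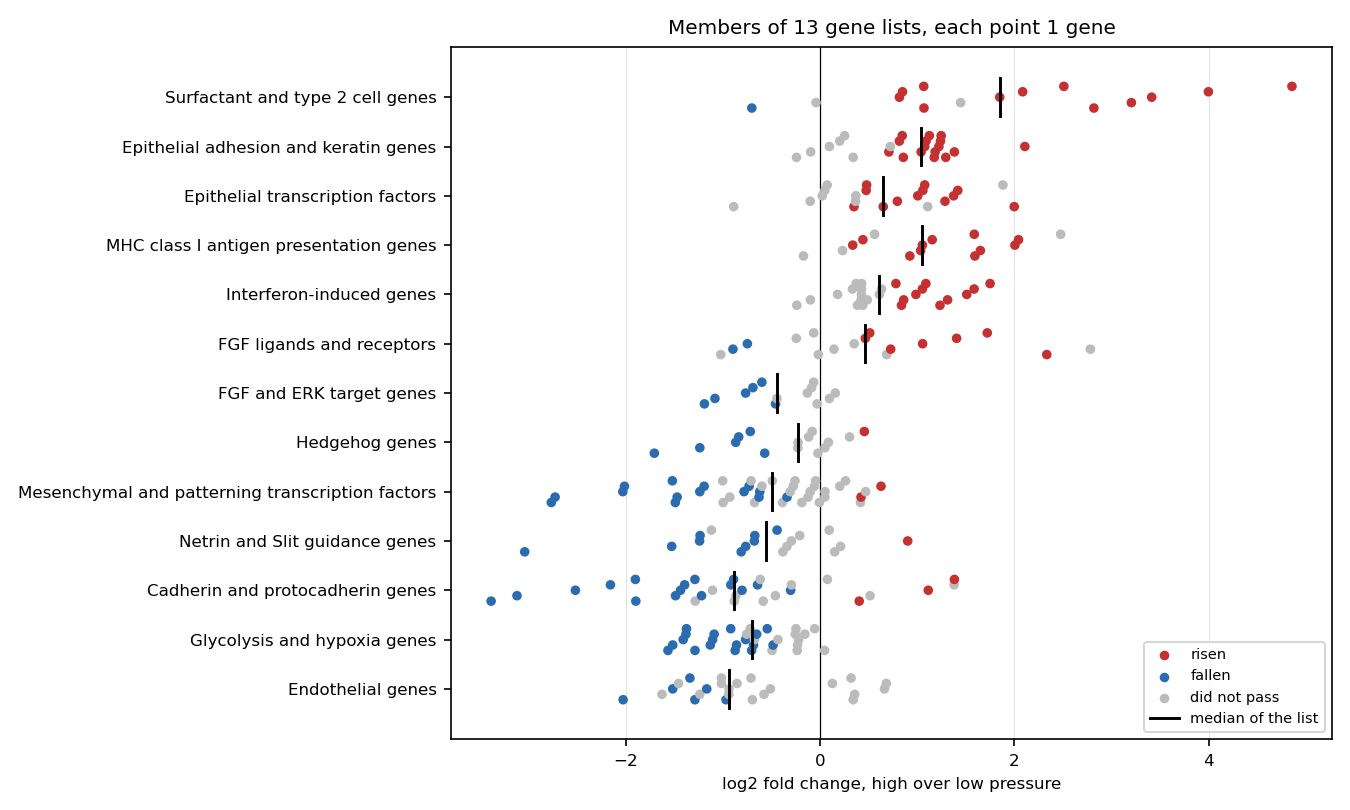
Log2 fold change of each tested member of 13 gene lists, high over low pressure, with risen members in red, fallen members in blue, others in grey and the list's median as a black bar. The epithelial, MHC class I and interferon lists lie mainly to the right of 0, and the FGF target, patterning, guidance, cadherin, glycolysis and endothelial lists mainly to the left.

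Among transcription factors that pattern the mesenchyme, 14 of 39 fell (35.9%, beside 12.2% of all genes) and 2 rose (median -0.49), with 8 without high-2 or high-3 and 9 without high-1. Meis2, a homeobox cofactor of Hox proteins (chr2:115863064-116065839, minus strand), had 181, 217 and 176 CPM at low and 75.9, 87.3 and 87.4 CPM at high pressure, a change of -1.19 (SE 0.11, adjusted p = 0.0006). The LIM factor Isl1 stood at 22.4, 28.2 and 26.1 CPM at low and 8.65, 8.89 and 9.75 CPM at high pressure, a change of -1.49 (SE 0.14, adjusted p = 0.000608). Sall1, a zinc finger factor, fell by 2.77 on the log2 scale, and Gata5 rose by 0.63. Of 23 Hox genes 5 fell and 1 rose (median -0.33), or 8 fallen without low-3 and 3 without high-2. Hoxa3, of an anterior group, had 33.7, 39.3 and 39.1 CPM at low and 21.4, 23.8 and 25.9 CPM at high pressure (-0.66, SE 0.12, adjusted p = 0.0067), and Hoxd3 changed by -2.74. Among 13 heterochronic genes, which set developmental timing, none rose and 3 fell, or 7 without low-3. Beside Hmga2 these were Lin28b, an RNA-binding protein that blocks let-7 microRNAs (-1.5), and Igf2bp1, an mRNA-binding protein, which stood at 227, 263 and 213 CPM at low and 128, 124 and 128 CPM at high pressure (-0.89, SE 0.10, adjusted p = 0.00105).

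Receptors of axon guidance also act between epithelium and mesenchyme. Of 18 netrin and Slit guidance genes 9 fell and 1 rose (median -0.56), with 5 falls without high-2. Unc5d, a netrin receptor (chr8:28646717-29219636, minus strand), had 9.85, 9.78 and 13.2 CPM at low and 1.47, 0.887 and 1.63 CPM at high pressure, a change of -3.04 (SE 0.29, adjusted p = 0.000608). Its relative Unc5c was far more abundant, at 438, 468 and 444 CPM at low and 282, 266 and 299.7 CPM at high pressure, and changed by -0.67 (SE 0.09, adjusted p = 0.00163). The netrin receptor Dcc fell by 1.53 and the Slit receptor Robo1 by 0.68 on the log2 scale. Of 31 semaphorin and plexin genes 5 rose (16.1%, beside 14.0% of all genes) and 8 fell (25.8%, beside 12.2%), with a median of -0.17. Sema3b (1.16), Sema4f (1.07) and Sema3e (0.80) were higher and Sema6d (-0.97), Sema6a (-0.86) and Sema4g (-0.77) lower. Leaving out libraries gave 3 without low-2, high-2 or high-3 for the rises and 4 without high-2 or high-3 and 5 without low-1 for the falls. In the ephrin list 5 of 20 rose and 5 fell, among them the receptors Epha2 (0.86) and Ephb1 (-1.16). With 1 library left out the rises were 2 without low-1 or high-3 and 3 without high-1 or high-2, the falls 1 without high-1, 2 without high-2, 3 without high-3 and 8 without low-3, and 2 rose with the offsets.

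Cadherins hold like cells together. Of 30 cadherin and protocadherin genes 3 rose and 16 fell (median -0.89), with 6 without high-3, 7 without low-2 or high-2 and 9 without high-1. The rises included Cdh1 and Cdh16, both cadherins of epithelia. Cdh16 had 43.7, 31.8 and 43 CPM at low and 79.6, 84.6 and 91.9 CPM at high pressure, a change of 1.11 (SE 0.14, adjusted p = 0.00142). N-cadherin, Cdh2, the counterpart of Cdh1 in mesenchyme, stood at 110.5, 132 and 152 CPM at low and 55, 45.4 and 49.6 CPM at high pressure, a change of -1.39 (SE 0.13, adjusted p = 0.000649). The protocadherins Pcdh19 (-1.49), Pcdh18 (-0.92) and Pcdh7 (-0.89) fell. Pcdh18 was the most abundant of the 3, at 277, 303 and 318 CPM at low and 146, 162 and 167 CPM at high pressure.

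Matrix genes moved in both directions. Of 42 collagen chains 13 rose and 7 fell (median 0.21), with 6 without high-3, 7 without low-1, low-2 or high-2 and 8 without high-1 for the rises and 4 without low-2 or high-2 for the falls. Col1a1, the main chain of fibrillar type I collagen (chr11:94936224-94953042, plus strand), had 900.5, 1048 and 1350.2 CPM at low and 2093, 2729 and 2750.3 CPM at high pressure, a change of 1.2 (SE 0.17, adjusted p = 0.00231). Its partner Col1a2 rose by 0.96, the basement membrane collagen Col18a1 by 0.75 and Col6a6 by 0.95. Among the falls were the vessel-associated Col8a1 (-2.84), Col19a1 (-1.99) and Col9a1, a cartilage chain that also lies in epithelial basement membranes, which had 32.3, 44.8 and 37.1 CPM at low and 7.26, 14.4 and 14.1 CPM at high pressure (-1.67). Of 15 cartilage genes 3 rose and 5 fell (median -0.33), with 1 without low-1, low-2, high-1, high-2 or high-3 for the rises and 2 without high-2 and 3 without low-2 or high-1 for the falls, and 1 risen with the offsets. Beside Col9a1 and Sox9, Cytl1 rose by 2.12.

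Elastic fibre genes rose in 5 of 18 cases and fell in 1 (median 0.45), with 9 risen without low-3. Eln, which encodes the elastin that lets airways recoil (chr5:134702593-134747323, minus strand), had 164, 163 and 321 CPM at low and 713, 678 and 635 CPM at high pressure. Low-3 was the highest of the low pressure libraries and still under each high pressure library, and the change was 1.64 (SE 0.25, adjusted p = 0.00299). The fibulins Fbln1 (0.87) and Efemp2 (0.69) and the crosslinking enzyme Loxl1 (1.1) rose, while the related enzyme Loxl2 fell by 0.65 on the log2 scale. Of 19 laminin and basement membrane genes 8 rose and 2 fell (median 0.32). Lamb3, a chain of an epithelial laminin, stood at 48, 38.5 and 47 CPM at low and 118, 125 and 123 CPM at high pressure and rose by 1.45. Lama5 (0.68) and Lamb2 (0.63) rose too, and Lama1, the early embryonic chain, went from 40.7, 43.6 and 53.6 CPM to 27.6, 17.7 and 16.3 CPM (-1.16), with Fras1 (-0.56) the other fall.

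Integrins, the cell receptors for matrix, rose in 2 of 24 cases and fell in 5 (median -0.21), with 4 risen without low-3 and 2 without high-2 and 3 without high-3 for the falls. The rises were epithelial subunits: Itga3, the laminin receptor chain, had 91.3, 88.4 and 81.8 CPM at low and 164, 171 and 181 CPM at high pressure (0.98, SE 0.09, adjusted p = 0.000504), and Itgb6, which activates latent TGF-beta, rose by 1.14. Itga8, a mesenchymal subunit, had 152, 134 and 155 CPM at low and 77.3, 66.6 and 82.1 CPM at high pressure (-0.97, SE 0.11, adjusted p = 0.00105). In the matricellular list 6 of 25 rose and 3 fell (median 0.12), with 11 risen without low-3. Beside Spon2, Thbs2 (1.89), the collagen-binding Fmod (1.56) and Sparc (0.88) rose. Vcan, a component of the hyaluronan-rich matrix of early mesenchyme, and Has2, an enzyme that makes hyaluronan, fell. Vcan stood at 974, 964 and 937 CPM at low and 574, 510.4 and 578 CPM at high pressure (-0.79, SE 0.09, adjusted p = 0.00106). Has2 stood at 39.5, 37.2 and 40.5 CPM at low and 17.8, 18.8 and 18.1 CPM at high pressure (-1.1, SE 0.11, adjusted p = 0.000649). Of 49 matrix proteases and inhibitors 10 rose (20.4%, beside 14.0% of all genes) and 9 fell (18.4%, beside 12.2%). Adamts5 (1.53), Adamts2 (1.03) and Mmp23 (1.06) were among the rises. Adamts18, Adamts20 (-1.51), Mmp16 (-0.84) and the plasminogen activator Plat (-0.85) were among the falls. The rises were 5 without low-2 or high-3 and 6 without low-1 or high-2 and the falls 5 without low-1 or high-2, and 6 rose with the offsets.

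Airway smooth muscle, which wraps the branching epithelium, gave no common direction. Of 19 smooth muscle genes 5 rose and 6 fell (median 0.22), with 3 falls without low-2, high-1, high-2 or high-3 and with the block. Acta2, the smooth muscle actin, stood at 186, 177 and 257 CPM at low and 220.0, 294 and 209 CPM at high pressure, with overlapping ranges (0.22, SE 0.18, adjusted p = 0.392), and Tagln changed by 0.04 (adjusted p = 0.887). Myocd, the coactivator that switches on the smooth muscle programme (chr11:65176561-65269989, minus strand), had 28, 27.8 and 27.6 CPM at low and 15.3, 12.4 and 14.3 CPM at high pressure, a change of -0.99 (SE 0.13, adjusted p = 0.00158). Tropomyosins Tpm1 (0.69) and Tpm2 (1.1), desmin Des (0.84) and the myosin kinase Mylk (0.55) rose, and the actin-binding Cald1 fell by 0.52 on the log2 scale. In the list of SRF targets and actin cytoskeleton genes 4 of 20 rose and 2 fell, or 8 risen without low-3 and 5 fallen with the offsets. Csrp1 (1.02), the actin crosslinker Actn4 (0.55) and the nonmuscle myosin Myh9 (0.63) rose, and the 2 falls did not pass without high-2.

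The summed level of endothelial genes was 446 to 717 CPM at low and 254 to 497 CPM at high pressure, so that high-2 and high-3 lay under every low pressure library and high-1 did not. Of 24 tested none rose and 6 fell (median -0.94). The count turned on high-1: without it 14 fell, without high-2 or high-3 there were 2, and with the replicate number as a block 14. Pecam1, an adhesion protein of endothelial cells, had 43.1, 30.2 and 27.1 CPM at low and 26.9, 11 and 11.8 CPM at high pressure, and the receptor Kdr had 116, 102 and 80.5 CPM at low and 91.4, 45.1 and 47.2 CPM at high pressure. High-1 lay within the low pressure range for Kdr and just under it for Pecam1, and neither passed (-1.02, SE 0.34, adjusted p = 0.0607 for Pecam1 and -0.70, SE 0.27, adjusted p = 0.088 for Kdr). Fli1, an ETS factor of endothelium, did pass and held 36.5, 29 and 34.4 CPM at low and 16.2, 11.8 and 11.5 CPM at high pressure (-1.34, SE 0.17, adjusted p = 0.00156), as did Erg (-1.17). The pericyte list, with 4 of 15 fallen and none risen (median -0.33), had 1 without high-2 and 2 without high-1 or high-3, and Cox4i2 passed throughout (-1.04).

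Of 12 erythroid genes none rose and 3 fell (median -0.45). They were Tfrc, the embryonic globin Hbb-bh1 (-1.22) and Slc4a1, which did not pass in any fit without 1 library other than that without low-3. Hbb-bh1 has close copies among the globins, so its reads are uncertain. The list's summed level ran from 515 to 990.0 CPM at low and from 517 to 653 CPM at high pressure. In the leukocyte list 3 of 19 rose and 2 fell (median 0.26). Ptprc, the common leukocyte antigen, had 9.35, 7.55 and 3.99 CPM at low and 7.37, 6.23 and 6.05 CPM at high pressure, and Csf1r, the macrophage growth factor receptor, 32.6, 35.7 and 34.9 CPM at low and 43.7, 25.2 and 26.1 CPM at high pressure, with overlap in each. Cx3cr1, a macrophage chemokine receptor, fell by 0.95 on the log2 scale. With the offsets none of the list rose, and the rises numbered 0 without high-3 and 1 without high-1 and the falls 1 without high-2 or high-3.

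Mesothelial genes, from the outer lining of the lung, rose in 5 of 12 cases (median 0.38), or 3 with the offsets, and none fell. Msln had 0.746, 0.494 and 0.479 CPM at low and 7.95, 9.3 and 8.62 CPM at high pressure, a change of 3.91 (SE 0.28, adjusted p = 0.00031), and Gpm6a rose by 1.16. Wt1, the defining factor of the layer, did not pass, at 79.4, 74.8 and 54 CPM at low and 71, 96.9 and 98.8 CPM at high pressure. The summed level was 726 to 879.8 CPM at low and 749.8 to 969 CPM at high pressure, so the ranges overlapped. Of 24 neuron and glia genes 2 rose and none fell, or 6 and 2 without low-3, among them the neuronal filament Prph (2.03). Raw counts of several genes that define neighbouring tissues were low in every library. The liver genes Alb and Afp had 0 to 9 counts, the atrial gene Nppa 0 to 7, the thymus gene Foxn1 0 to 7, the oesophageal keratin Krt13 0 to 33 and the thyroid gene Tg 2 to 18. Myh6, a cardiac myosin, varied from 11 to 577 counts, with 577 and 556 in high-2 and high-3, and its fold change did not pass. The list of cardiac and striated muscle genes summed to 63.6 to 124 CPM at low and 92.4 to 109 CPM at high pressure. Of its 17 tested members 1 fell and none rose.

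Of 25 interferon-induced genes 11 rose and none fell (median 0.61), with 4 without high-2, 6 without high-3, 7 without low-2 and 18 without low-1. Irf7, a factor that amplifies the interferon response (chr7:141262706-141266481, minus strand), had 18.9, 13.7 and 12 CPM at low and 40.3, 46 and 40.4 CPM at high pressure, a change of 1.51 (SE 0.18, adjusted p = 0.00115). Stat2, a subunit of the complex that binds interferon-stimulated promoters, had 40.9, 35.2 and 34.1 CPM at low and 60.2, 68.4 and 68 CPM at high pressure, a change of 0.84 (SE 0.11, adjusted p = 0.0019). Oasl2 rose by 0.86, and Bst2, a membrane protein that tethers budding virus, by 0.99 (SE 0.14, adjusted p = 0.00229). Bst2 did not pass with the offsets (adjusted p = 0.0882). Of 15 genes of MHC class I antigen presentation 11 rose and none fell (median 1.05), or 6 without high-2 or high-3. Tap2, a subunit of the peptide transporter, had 6.53, 3.98 and 4.15 CPM at low and 17.7, 20.5 and 22.1 CPM at high pressure (2.04, SE 0.22, adjusted p = 0.000997). H2-K1, a class I heavy chain, had 44.8, 41.5 and 31.5 CPM at low and 77.9, 155 and 136 CPM at high pressure, a change of 1.65 (SE 0.25, adjusted p = 0.00282). It has close copies, so its reads are uncertain. Tapbp (1.05) and the immunoproteasome subunit Psmb8 (1.59) rose too.

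Factors of the STAT and IRF families bind a promoter element called the interferon-stimulated response element. The letters GAAANNGAAA were searched on both strands of the 250 bases before each RefSeq gene start (GRCm38.p6). They were present in 44.4% of the 18 tested interferon-induced genes with a window and in 6 of the 9 risen ones, against 3.11% of 10902 tested genes and 2.98% of all 32851 windows. Of 13 class I genes with a window 2 had a match, both among the 10 risen ones. Shown are the 250 bases upstream of Stat2 (chr10:128270248-128270497, plus strand) and Bst2 (chr8:71537473-71537722, minus strand), risen genes of the list whose matches, in capitals, lie on different strands. The match begins 222 bases before the start of Stat2, and in Bst2 a pair of overlapping matches begins 130 and 124 bases before it. A match describes these letters and shows no binding.
Stat2: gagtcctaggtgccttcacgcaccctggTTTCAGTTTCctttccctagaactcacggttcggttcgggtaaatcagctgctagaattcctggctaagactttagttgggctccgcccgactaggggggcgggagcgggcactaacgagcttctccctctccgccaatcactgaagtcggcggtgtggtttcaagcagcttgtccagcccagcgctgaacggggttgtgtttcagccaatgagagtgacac
Bst2: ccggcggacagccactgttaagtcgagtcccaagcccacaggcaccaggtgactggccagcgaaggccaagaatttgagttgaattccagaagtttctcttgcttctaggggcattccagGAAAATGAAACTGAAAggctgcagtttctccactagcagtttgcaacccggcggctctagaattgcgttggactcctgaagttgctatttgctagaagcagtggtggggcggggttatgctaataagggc

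Other inflammatory genes moved partly the same way. In the acute phase and NF-kappaB list 9 of 22 rose and 2 fell (median 0.34). Saa3, an acute phase protein with close paralogs, rose by 2.62, the metalloreductase Steap4 by 2.63 and the adhesion protein Icam1 by 1.4. Icam1 stood at 33.1, 22.5 and 28.1 CPM at low and 74.3, 72.2 and 73.5 CPM at high pressure, with the high pressure libraries within 3 CPM of each other. In the chemokine list Cxcl10, which interferon induces, rose by 1.26, Ccl6 by 1.43 and Cxcl16 by 0.75. There 4 of 34 rose and 2 fell, or 4 fell without high-1. These shares with all libraries, 11.8% and 5.88%, lay under the 14.0% and 12.2% of all genes. Cxcl12, a chemokine of mesenchyme that guides endothelial and blood cells (chr6:117168535-117181367, plus strand), had 119, 139 and 112 CPM at low and 46.8, 41.7 and 40.7 CPM at high pressure, a change of -1.52 (SE 0.11, adjusted p = 0.00031). Ligand and receptor thus both fell, since its receptor Cxcr7 was the other fallen gene of the list.

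Glycolysis and hypoxia genes had the highest share of fallen members among lists with 12 or more. None of 31 rose and 18 fell (58.1%, median -0.70), with 13 without high-1 to 22 without low-3, and 22 with the offsets. Hk2, the hexokinase that opens glycolysis (chr6:82725025-82774454, minus strand), had 624, 706 and 671 CPM at low and 246, 228 and 345 CPM at high pressure, a change of -1.29 (SE 0.16, adjusted p = 0.00132). Pgam1, a later enzyme of the path, stood at 1293, 1318 and 1666 CPM at low and 618, 594 and 774 CPM at high pressure, a change of -1.11 (SE 0.14, adjusted p = 0.00164). It was added to the list after its values were seen, and the list's counts and share include it. Pdk1, a kinase that inhibits pyruvate dehydrogenase, had 388, 378 and 351 CPM at low and 175, 137 and 198 CPM at high pressure, a change of -1.13 (SE 0.14, adjusted p = 0.0013). Ndrg1, a marker of low oxygen, had 595, 627 and 631 CPM at low and 254, 149 and 222 CPM at high pressure, a change of -1.57 (SE 0.18, adjusted p = 0.00106), and the histone demethylase Kdm3a fell by 1.38 on the log2 scale. Vegfa, the vascular growth factor, was abundant at both pressures, at 1684, 1713 and 1902 CPM at low and 834, 855 and 1201 CPM at high pressure (-0.87, SE 0.15, adjusted p = 0.00465). All of these genes were lower in every high pressure library than in any low pressure library. Among all genes tested the groups did not overlap for 46.8%, but most genes named here were chosen by the smallest p, which favours such an absence.

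The hypoxia-inducible factor binds a short element with the core letters ACGTG. Searched in the same windows on both strands, it was present in 60.7% of 28 glycolysis and hypoxia genes with a window and in 10 of the 15 fallen ones, against 24.5% of tested genes and 16.6% of all windows. The 10 include Pgam1, which was added to the list after its values were seen. Shown are the 250 bases upstream of Hk2 (chr6:82774455-82774704, minus strand) and Pgam1 (chr19:41911621-41911870, plus strand), glycolytic genes with large falls, with the letters in capitals. They lie 226 and 52 bases before the start of Hk2 and 114 bases before that of Pgam1.
Hk2: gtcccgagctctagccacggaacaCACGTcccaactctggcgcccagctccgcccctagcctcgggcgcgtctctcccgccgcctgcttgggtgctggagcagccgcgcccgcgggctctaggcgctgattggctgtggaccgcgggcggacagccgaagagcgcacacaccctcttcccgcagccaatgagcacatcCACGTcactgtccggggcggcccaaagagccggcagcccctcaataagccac
Pgam1: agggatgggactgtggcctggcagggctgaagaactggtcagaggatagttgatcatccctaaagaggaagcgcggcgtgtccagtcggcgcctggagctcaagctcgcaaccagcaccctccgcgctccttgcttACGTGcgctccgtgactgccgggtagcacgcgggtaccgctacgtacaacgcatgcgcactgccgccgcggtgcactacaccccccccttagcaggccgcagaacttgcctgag
Other searches gave descriptions of the same kind. The letters CTCAAG, from the core that NKX2-1 binds, were in 2 of 11 surfactant genes and 3 of 5 secretory genes with a window (2 of the 10 and 1 of the 3 risen ones), against 14.4% of tested genes. GGAATG, the core of TEAD factors, was in 9 of 13 YAP and TAZ genes, among them the 1 risen and 2 of the 3 fallen ones with a window, against 13.2%, and the CArG box of SRF in 2 of 15 smooth muscle genes, 1 of the 5 risen and 0 of the 5 fallen ones, against 1.39%.

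Synthesis of cholesterol and fatty acids fell in 10 of 27 genes and rose in none (median -0.26), or 6 falls without low-2 or high-3, and 4 rises without low-3. Hmgcs1, which acts early in cholesterol synthesis, had 571, 751 and 675 CPM at low and 339.9, 359 and 302 CPM at high pressure (-1.0, SE 0.12, adjusted p = 0.00139), and every high pressure library lay under every low pressure library. The fatty acid elongase Elovl6 (-0.77) and Hsd17b7 (-0.58) fell as well.

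Of 79 cytosolic ribosomal protein genes 57 rose and none fell (median 0.79). Rpl37 had 30.1, 29.2 and 24.1 CPM at low and 75.7, 74.1 and 87.7 CPM at high pressure, a change of 1.51 (SE 0.12, adjusted p = 0.000398), and Rps23, Rplp2 and Rpl14 rose by 1.38, 1.32 and 1.15. These transcripts are short and have near-identical copies in the genome, so their reads are uncertain, and with the offsets 35 rose and 1 fell. Of 75 oxidative phosphorylation genes 34 rose and 3 fell (median 0.49), with 19 without high-3, 20 without high-2 and 22 without high-1. With the offsets 11 rose and 3 fell (median 0.23). Uqcrb (1.07), Atp5h (1.19) and Ndufv1 (0.86), subunits of different respiratory complexes, passed throughout. Cox4i2, a subunit isoform that low oxygen induces, was among the 3 that fell.

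Stress genes showed mixed changes. Of 21 metallothionein and NRF2 genes 8 rose and none fell (median 0.48), with 4 without low-2 or high-3, 5 without high-2 and 14 without low-3, and 4 with the offsets. Sod1, which removes superoxide, had 53, 53.8 and 59.2 CPM at low and 115, 111 and 119 CPM at high pressure (1.06, SE 0.09, adjusted p = 0.000398), and Txnrd1 rose by 0.71. Of 13 heat shock genes 8 rose and 1 fell (median 0.52), with 3 without high-2 or high-3, 4 without low-1 and 5 without low-2, and 5 with the offsets. The co-chaperone Bag3 (0.75), its partner Hspb8 (0.87) and the small heat shock protein Cryab (1.45) rose, and Hsph1 fell by 0.88 on the log2 scale. Bag3 held 40.1, 42.2 and 46.5 CPM at low and 70.8, 71.6 and 73.6 CPM at high pressure. In the ATF4 and endoplasmic reticulum stress list 3 of 20 rose and 5 fell, with 1 and 2 falls without high-2 and high-3 and 5 rises without low-3. Psat1 (0.52) and Pdia4 (0.49) rose and the lipoprotein receptor Vldlr (-1.14) fell. Of 20 immediate early genes 2 rose and 4 fell. The falls numbered 1 without low-1, low-2, high-1 or high-2 and 2 without high-3, and with the offsets 0 rose. Myc alone passed in every fit. It had 54, 51.8 and 41.2 CPM at low and 31.6, 29.4 and 30.5 CPM at high pressure, a change of -0.68 (SE 0.13, adjusted p = 0.00628).

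Cell cycle genes included both brakes and mitotic genes among the rises. Of 22 cell cycle inhibitors and p53 targets 10 rose and 1 fell (median 0.54), with 5 without low-2 or high-3 and 6 without high-1 or high-2, 6 with the block and 5 with the offsets. Cdkn1a, which encodes the kinase inhibitor p21 (chr17:29090976-29100727, plus strand), had 64.5, 60.4 and 53.3 CPM at low and 154, 183 and 189 CPM at high pressure, a change of 1.56 (SE 0.12, adjusted p = 0.00031). Cdkn2b rose by 2.49 from under 1 CPM, Cdkn2d by 1.14 and the p53 target Zmat3 by 0.56. Of 24 mitosis genes 9 rose and 1 fell (median 0.21), with 2 without high-2, 4 without low-2, 5 without low-1 or high-3 and 14 without low-3. Cdc20, which triggers anaphase, had 53.4, 52.9 and 48.7 CPM at low and 90.3, 92.5 and 87.6 CPM at high pressure (0.80, SE 0.09, adjusted p = 0.00101), and Birc5 rose by 0.62. Among 25 S phase and replication genes 1 rose and 3 fell (median 0.02), and none of these 4 passed without high-2.

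The same genes could be followed in lungs that developed in the embryo. Of 2027 risen genes that were also tested in the fresh lungs, 63.2% had a higher mean at E14.5 than at E12.5, against 38.9% of 1785 fallen genes and 49.3% of all 14017 genes tested in both. Without replicate 1 of those stages the shares were 57.9% of risen and 44.4% of fallen genes. Without replicate 2 they were 72.4% and 31.8%. Across genes the Pearson r between the change with pressure and that with stage was 0.20, over 3 libraries per group in tables that share no library. E12.5 libraries, like those at low pressure, pooled 6 lungs and E14.5 libraries pooled 3, so stage and pool size cannot be told apart either. Cardiac and striated muscle genes were higher at E14.5 by a median log2 difference of 4.7. The part that other tissue has in the difference between stages was not tested. The levels that follow come from the separately scaled table of fresh lungs. Sftpc averaged 9.22 ± 7.61 CPM at E12.5 and 32.9 ± 42.4 CPM at E14.5, Cldn18 37.9 ± 11.3 and 73.7 ± 15 CPM, and Eln 53.8 ± 41.6 and 121 ± 59.2 CPM (SD, n = 3). The spread between replicates was wide, and the SD of Sftpc exceeded its mean at E14.5. Among the fallen genes Asb4 averaged 86.6 ± 48.4 and 39.2 ± 10.4 CPM (SD, n = 3). Sall1 and Trp63, fallen at high pressure, had higher means at E14.5, 1.0 ± 0.65 against 5.71 ± 4.93 CPM and 1.33 ± 0.621 against 4.38 ± 1.31 CPM (SD, n = 3).

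**Figure D5:**
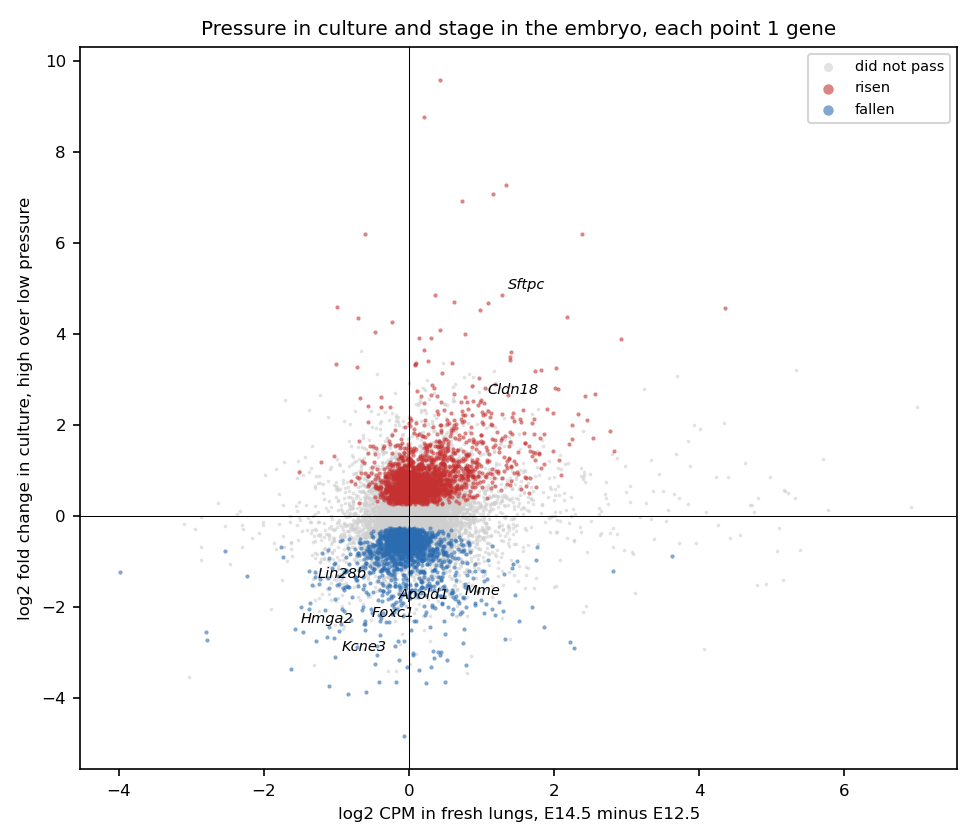
Log2 fold change with pressure in culture (vertical axis) against the difference in mean log2 CPM between E14.5 and E12.5 in fresh lungs (horizontal axis), each point 1 gene, risen genes in red, fallen genes in blue and others in grey. Of the risen genes 63.2% lie to the right of 0, and of the fallen genes 38.9%.

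Some genes that differed between the pressures stood far from their level in fresh lungs at both pressures. Means of the fresh lungs are given ± SD (n = 3). Ndrg1 averaged 11.2 ± 2.84 CPM at E12.5 and 12.8 ± 1.41 CPM at E14.5 in the separately scaled table of fresh lungs, against 149 to 254 CPM at high and 595 to 631 CPM at low pressure. Vegfa averaged 118 ± 39.8 and 136 ± 52.9 CPM there, and 834 CPM or more in each cultured library. Irf7 and Cdkn1a, which were higher at high pressure, averaged 0.0847 ± 0.104 and 4.54 ± 2.42 CPM at E14.5, under all their cultured libraries. Aplnr, an endothelial receptor, went the other way, with 220.2 ± 43.5 CPM at E12.5 and 11.8 to 49.7 CPM at low and 5.12 to 9.7 CPM at high pressure. It fell with pressure by 2.03 on the log2 scale, and did not pass without high-2 or high-3. Levels set across the tables were not tested.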

How the data were processed

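The authors deposited whole-number counts per gene for the 6 cultured libraries and, in a separate table, for the 9 from fresh lungs, besides transformed tables that were not used. Per the submitters' processing notes, the tools were cutadapt 1.6, Bowtie 1.1.1, TopHat, HTSeq and DESeq2, with mm10. The sources used here do not say whether counting used strand, so overlapping and antisense genes cannot be told apart. Of 23420 genes, 14937 passed edgeR's filter by group. High and low pressure were compared by the robust quasi-likelihood test of edgeR 4.0.16 (R 4.3.3, TMM scaling, Benjamini-Hochberg adjustment over all genes tested). SE is the absolute log2 fold change over the square root of F, and CPM uses the TMM-scaled totals. Transcript length and GC content came from GENCODE M21 (23042 genes matched), promoters from RefSeq. On simulated counts for 14553 genes of this comparison, 48 of 50 genes were recovered at a log2 change of 2 and 34 of 50 at 1, and 16 of 14353 unchanged genes were called. Changes were set in few genes, all with a mean of at least 50 counts at low pressure. The state of low-3 and the trend with length and GC content were not simulated, so these rates may not hold for the real libraries. The totals per library leave little counting error for genes above a few CPM.

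The members and gene lists were chosen with earlier results of these data known. Genes named are the 15 largest rises and falls among called genes that averaged 20 CPM or more and whose groups did not overlap, up to 4 members per list and direction with the smallest p, members against a list's trend, and cell type markers; a few of these are not reported here. Alternatives were RLE scaling, DESeq2 1.42.0, no filter, a mean of at least 5 CPM, the replicate number as a block, offsets for GC content and length (lowess, span 0.3), and leaving out each library. The labels do not say whether replicate numbers pair the libraries. Same-numbered libraries had correlations of deviations of 0.05, -0.01 and 0.01, and other pairs -0.04 to 0.02. With 3 libraries per group such values cannot decide whether a pairing exists. Fresh lungs were described by mean log2 CPM with a prior count of 2, without a test.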

Additional observations from a re-analysis of the deposited data

How the results depend on the processing

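The number of genes past the threshold ran from 3052 with offsets for GC content and length to 4745 of 15693 with DESeq2 over the settings that kept all libraries, and from 1894 without high-2 to 6257 without low-3 when 1 library was left out (2411 without high-1, 2016 without high-3). List members past the threshold ran from 360 to 776 over the same fits, with 387 without high-3. With the replicate number as a block 3137 genes passed, against 3905 without it. Whether the numbers pair the libraries is not known, so that value is no measure of a weaker effect. Of the named genes that kept their direction, the block left 35 short of the threshold, the offsets 67, leaving out high-2 101 and leaving out low-3 7. The direction turned for 2 genes, both with the offsets: Igfbp2 went from 0.37 to -0.13 and Atf4 from 0.28 to -0.040. Neither of them passed edgeR's test with the offsets (adjusted p = 0.406 for Igfbp2 and 0.747 for Atf4).

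The share of risen genes with a higher mean at E14.5 was 57.9% to 72.4% without 1 replicate of the fresh lungs, that of fallen genes 31.8% to 44.4% (41.7% without replicate 3), and that of all genes 49.0% to 50.9%. RLE scaling gave 59.3%, 32.5% and 44.2%, and a mean of at least 5 CPM gave 59.9% of risen and 46.8% of all genes. Among genes whose log2 fold change was 1 or larger in size, the median transcript was 2530 bases for risen and 4270 bases for fallen genes, and the median GC content 53.8% and 47.2%.

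Limits were the 3 pools per pressure, the different pool sizes, low-3, and the trend with transcript length and GC content, whose cause was not tested.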
